A study of Homo sapiens with 8 samples.

Results

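The 10 genes described here encode the core machinery that moves a cell from the G1 phase of the cell cycle into S phase: the cyclins CCND1, CCND3 and CCNE1, the kinases CDK4 and CDK6, the inhibitors CDKN1A, CDKN1B and CDKN2A, the pocket protein RB1 and the transcription factor E2F1. They were chosen by gene symbol, and each symbol matched exactly 1 of the 52576 rows of the expression table. All 10 passed the filter on low values, an average of 1 RPKM or more, as did 13979 genes in all. RPKM is the read number scaled to the length of the gene model and to the depth of the library.

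Poly(A) RNA was sequenced from NCI-H2009, a long-established line of human lung adenocarcinoma cells. Every library came from cells that carried dCas9-KRAB, a catalytically dead Cas9 fused to KRAB, a repressor domain that silences chromatin around the bound site. The 8 libraries formed 4 groups of 2: cells with no guide RNA, cells with a non-targeting guide RNA, cells with e3 guide 1, and cells with e3 guide 2. The e3 guides are 2 different guide RNAs to the same enhancer, known from the study as an enhancer of MYC, a transcription factor gene that drives cell growth and division. The no-guide and non-targeting libraries are together called the controls. The labels name a single cell line, no clone and no time after transfection, and they leave unsaid whether a pair of libraries stems from separate cultures. In comparisons that do not pool the e3 guides, p-values therefore reflect the spread between libraries of a group alone, which may be technical. Where the e3 guides are pooled, the spread also holds differences between the 2 guides and, against all controls, between the kinds of control.

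As background, D cyclins activate CDK4 and CDK6 in G1, and these kinases phosphorylate the RB1 protein, which until then holds E2F factors inactive. Released E2F1 and its relatives switch on genes for DNA replication, among them CCNE1, whose product activates CDK2 and completes RB1 phosphorylation. INK4 proteins such as p16, from CDKN2A, bind CDK4 and CDK6, while the CIP/KIP proteins p21 (CDKN1A) and p27 (CDKN1B) bind cyclin-CDK2 complexes. MYC is known to act on several of these genes, raising CDK4 and repressing CDKN1A.

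The windows before the start sites of CDK4 and E2F1 are shown because CDK4 is a textbook MYC target with E-boxes and E2F1 a textbook target of E2F factors. They were also picked after the levels were seen, as their e3 libraries did not overlap with the control libraries. Such separation held for 15.1% of all genes tested, and also for CDKN2A and RB1, whose windows are not shown. With the e3 guides against all controls neither CDK4 nor E2F1 was called (limma, adjusted p = 0.106 and 0.0633). Whether the motifs bear on these levels was not tested. The windows shown are the 250 bases upstream of the RefSeq start, from the GRCh38.p14 build and the minus strand. That of CDK4 lies at chr12:57752311-57752560 and that of E2F1 at chr20:33686386-33686635. Capitals mark CACGTG (the E-box that MYC with its partner MAX binds) in CDK4, and TTTCCCGC, TTTGGCGC, TTTCGCGC or TTTGCCGC (E2F motifs), on either strand, in E2F1.
CDK4: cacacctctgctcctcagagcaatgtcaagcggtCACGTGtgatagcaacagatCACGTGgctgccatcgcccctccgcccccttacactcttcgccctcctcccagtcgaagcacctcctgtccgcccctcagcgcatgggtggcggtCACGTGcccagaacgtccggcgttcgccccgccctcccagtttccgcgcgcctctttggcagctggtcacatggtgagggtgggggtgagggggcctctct
E2F1: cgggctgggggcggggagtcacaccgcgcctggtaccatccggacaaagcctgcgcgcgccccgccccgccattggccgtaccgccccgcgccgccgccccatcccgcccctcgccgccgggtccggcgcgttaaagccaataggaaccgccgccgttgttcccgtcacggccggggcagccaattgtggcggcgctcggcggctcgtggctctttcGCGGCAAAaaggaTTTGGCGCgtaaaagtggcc
The CDK4 window held 3 CACGTG matches, with first bases at -216, -196 and -101 from the start, and no E2F motif. That of E2F1 held 2 E2F motifs, with first bases at -33 (on the opposite strand) and -20, and no CACGTG. Among 35116 windows of the same length before RefSeq starts, 6.35% held CACGTG and 2.79% an E2F motif. The windows of CCND3, CDK6, CCNE1, CDKN2A, CDKN1A and CDKN1B held neither motif. The only entry for RB1 is for a start inside the gene, so the window before its main start was not searched, and CCND1 had no entry. A match describes these letters only, and binding was not measured here.

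MYC, the gene whose enhancer was targeted, stood at 74.6 and 72.7 RPKM without a guide, 88.9 and 90.1 RPKM with the non-targeting guide, 42.4 and 43.4 RPKM under guide 1 and 36.3 and 36.2 RPKM under guide 2. It fell with the e3 guides by 1.02 ± 0.10 (SE) on the log2(RPKM + 1) scale (limma, adjusted p = 0.00215), and it rose by 0.28 ± 0.05 with the non-targeting guide against no guide (limma, adjusted p = 0.0133). The call between the controls was lost under quantile normalization (adjusted p = 0.0517), without the second no-guide library (0.0725) and without either non-targeting library (0.0671 and 0.0836). Depths recovered from the steps between RPKM values were 3875080 to 5754470 reads per library. The first principal component of all tested genes, with 38.9% of the variance, ran from -38.3 and -36.9 in the libraries without a guide to between 5.74 and 18.5 in all others. Epithelial markers were present in every library (6 of 6 genes, summed level 2302 to 2975 RPKM), whereas of the lung alveolar markers NKX2-1 alone had a mean of at least 1 RPKM, and SFTPA1 and SFTPC were at 0 throughout. Of the fibroblast markers COL3A1, DCN and LUM were at 0 in all libraries, while COL1A1 ran from 3.18 to 6.68 RPKM and was lowest without a guide. COL1A2 reached at most 0.596 RPKM and PDGFRB at most 0.072 RPKM. The 3 endothelial markers in the table summed to at most 0.503 RPKM. The leukocyte markers CD3E and PTPRC were at 0 or, in 1 library, at 0.0469 RPKM, although the lysosomal gene CD68 of that list ran from 12.2 to 31.8 RPKM. The summed epithelial markers were highest without a guide (2892 to 2975 RPKM, against at most 2671 RPKM elsewhere), as were KRT8, KRT18 and KRT19 singly. CDH1 went the other way, with 184 and 181 RPKM without a guide and 200 to 215 RPKM in the e3 libraries. The no-guide libraries overlapped with the non-targeting libraries in EPCAM and with the e3 libraries in MUC1. The summed leukocyte markers, nearly all CD68, went from 12.4 to 14.3 RPKM without a guide through 21.9 to 24.1 RPKM in the non-targeting libraries to between 28.6 and 32.1 RPKM in the e3 libraries. Their part in the results below was not tested.

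With the e3 guides set against all 4 controls, none of the 10 genes was called, where a call means an adjusted p under 0.05 (limma, Benjamini-Hochberg adjustment over 13979 genes). In that comparison 5.2% of all genes tested were called, and at an unadjusted p under 0.05 the counts were 4 of the 10 genes (CDK4, CDKN2A, CDKN1A and E2F1) and 22.2% of all genes. In CDK4, CDKN2A and RB1 every e3 library lay below every control library, and in E2F1 every e3 library lay above, while the other 6 genes overlapped. Such separation held for 15.1% of all genes tested. In bulk RNA, fewer cells expressing a gene and less RNA per cell cannot be told apart. The plot of levels by library shows that in several panels the no-guide libraries stood away from the other 6, and the controls are therefore also given separately.

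**Figure D1:**
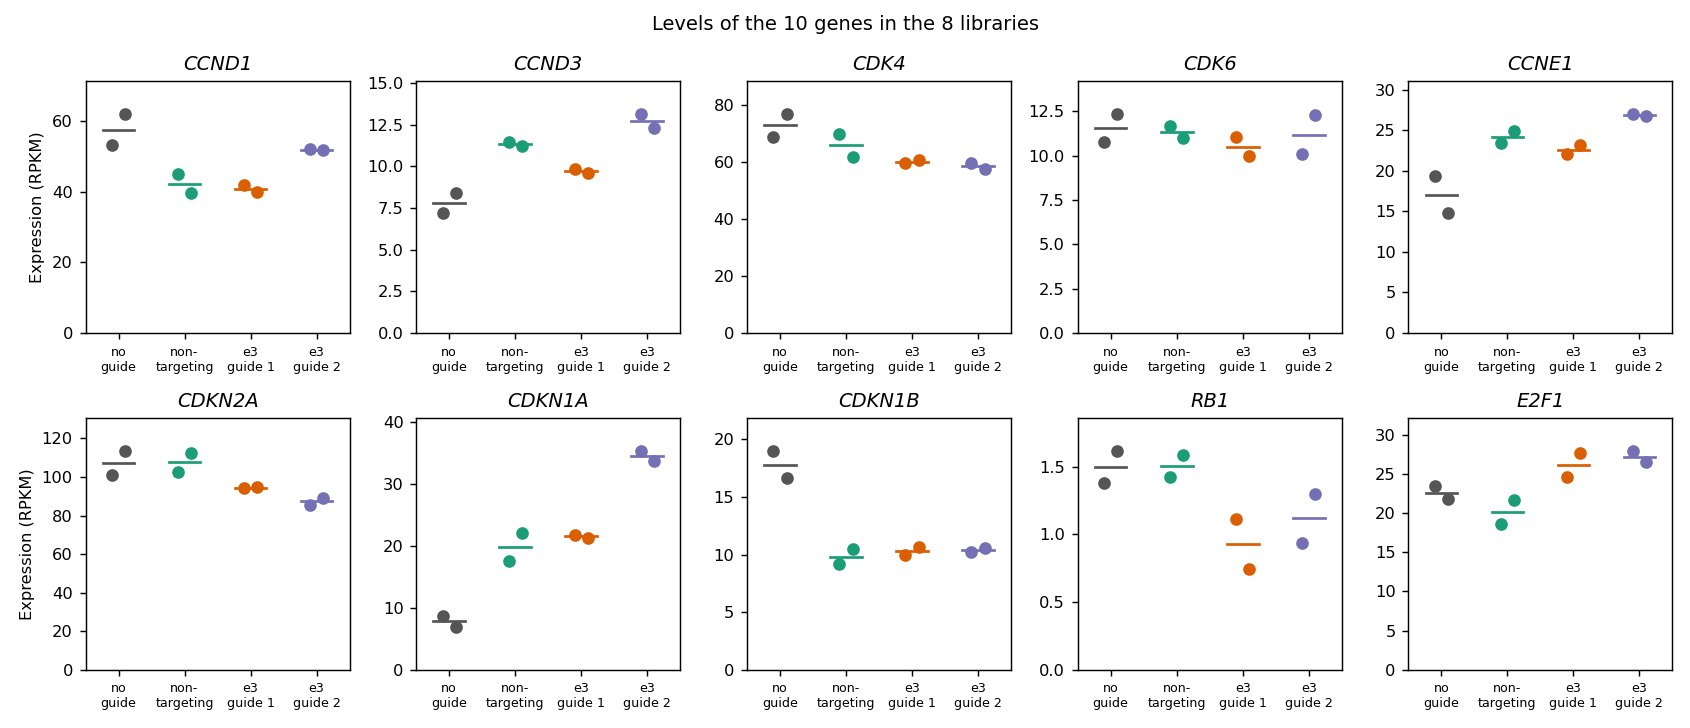
Expression in RPKM (vertical axis, from 0) of each gene in the 4 groups (horizontal axis). Points are single libraries and lines are group means of 2. CDKN1A ran from 6.96 RPKM without a guide to 35.4 RPKM with e3 guide 2, CDKN1B was highest without a guide, and CDK6 overlapped between all neighbouring groups.

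Of the inhibitors, CDKN1A, which encodes p21, varied most of the 10 genes, 5.09-fold between its lowest and its highest library. CDKN1A stood at 8.67 and 6.96 RPKM without a guide, 17.6 and 22.2 RPKM with the non-targeting guide, 21.8 and 21.3 RPKM under guide 1 and 35.4 and 33.8 RPKM under guide 2. The no-guide libraries were lowest and those of guide 2 highest, and guide 1 overlapped with the non-targeting guide. CDKN1A rose with the non-targeting guide against no guide, by 1.24 ± 0.13 (SE) on the log2 scale, from a mean of 7.81 ± 1.21 to 19.9 ± 3.24 RPKM (SD, n = 2 each; limma, adjusted p = 0.000963). It also rose with guide 1 (0.74 ± 0.11, adjusted p = 0.00762) and with guide 2 (1.40 ± 0.11, adjusted p = 0.00021) against the mean of the controls. Against all controls the e3 guides together gave 1.07 ± 0.33 (limma, adjusted p = 0.0971), from 13.8 ± 7.24 to 28.1 ± 7.56 RPKM (SD, n = 4 each), a spread that holds the differences within each arm. Without the second non-targeting library this comparison was called (1.33, adjusted p = 0.0442). Set against the non-targeting guide alone the change was 0.45 (95% interval -0.07 to 0.97, limma adjusted p = 0.29), and against no guide alone 1.69 ± 0.22 (limma, adjusted p = 0.0019). The call with guide 1 was lost without its first or its second library (limma, adjusted p = 0.059 and 0.0562). Between 83 and 576 reads lay behind each value.

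CDKN1B, which encodes p27, had the opposite order between the controls. It stood at 19.0 and 16.6 RPKM without a guide, 9.14 and 10.5 RPKM with the non-targeting guide, 9.96 and 10.6 RPKM under guide 1 and 10.3 and 10.5 RPKM under guide 2. The no-guide libraries were above all others, and the other 3 groups overlapped. CDKN1B fell by 0.80 ± 0.11 (SE) on the log2 scale with the non-targeting guide against no guide, to 0.55 of the no-guide mean (limma, adjusted p = 0.00337), and by 0.73 ± 0.09 with the e3 guides against no guide (limma, adjusted p = 0.0016). These comparisons share the no-guide libraries. Against the non-targeting guide the e3 guides differed by 0.07 (95% interval -0.15 to 0.29, limma adjusted p = 0.723).

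The ratio of CDKN1A to CDKN1B within a library, both per kilobase, was below 1 in the absence of a guide (0.456 and 0.419) and above it in every library with one. It was 1.92 and 2.12 in the non-targeting libraries, 2.19 and 2.00 under guide 1 and 3.45 and 3.20 under guide 2. Guide 2 was above the other groups, and guide 1 overlapped with the non-targeting guide. The ratio of CCND1 to CCND3 was likewise apart without a guide (7.36 and 7.35) from its range of 3.52 to 4.25 in the other 6 libraries. Both pairs hold genes that moved in opposite directions between the controls, so these ratios restate those changes. CDK4 over CDK6 was 6.39 and 6.21 without a guide and 4.67 to 6.06 in the other 6 libraries. CCNE1 over CCND3 was not apart, with 2.68 and 1.76 without a guide and 2.05 to 2.41 in the other 6.

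**Figure D2:**
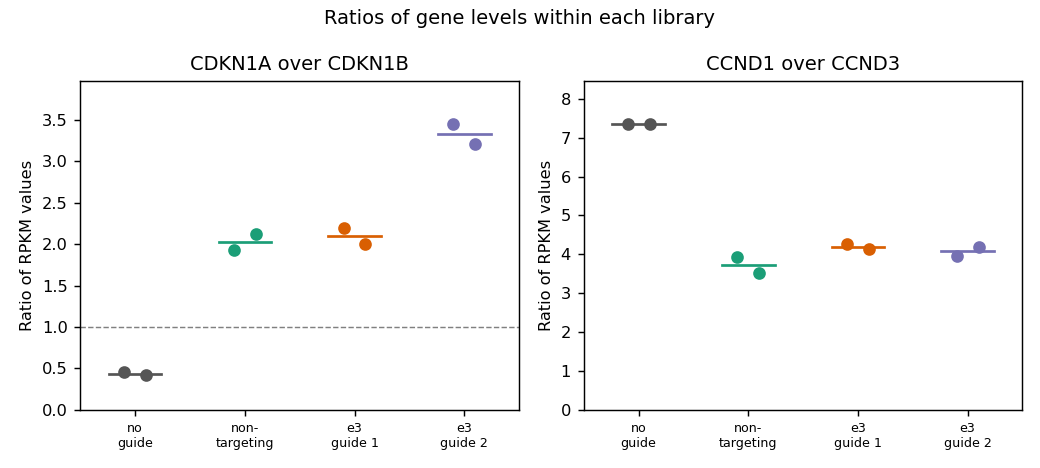
Ratio of RPKM values within each library (vertical axis, from 0) for CDKN1A over CDKN1B and for CCND1 over CCND3, by group (horizontal axis). Points are libraries, lines are means of 2, and the dashed line marks equal RPKM. The no-guide libraries lie at 0.456 and 0.419 on the left and at 7.36 and 7.35 on the right.

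CDKN2A, a locus that encodes both p16 and the ARF protein, whose transcripts the single row does not separate, had the highest mean level of the 10 genes (99.2 RPKM, above 95.9% of genes tested). It stood at 100.8 and 113.7 RPKM without a guide, 102.8 and 112.3 RPKM with the non-targeting guide, 94.4 and 94.6 RPKM under guide 1 and 85.6 and 89.1 RPKM under guide 2. All e3 libraries lay below all controls, and the controls overlapped with each other. The log2 change with the e3 guides was -0.24 ± 0.06 (SE; limma, adjusted p = 0.0604), from 107.4 ± 6.53 to 90.9 ± 4.36 RPKM (SD, n = 4 each). Taken alone, guide 2 passed against the controls (-0.29 ± 0.06, limma adjusted p = 0.0169), though not without its first or its second library (adjusted p = 0.114 and 0.0731), and guide 1 did not pass (-0.18 ± 0.06, adjusted p = 0.113).

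Among the D cyclins, CCND1 stood at 53.1 and 62.0 RPKM without a guide, 44.9 and 39.5 RPKM with the non-targeting guide, 41.8 and 39.9 RPKM under guide 1 and 52.1 and 51.6 RPKM under guide 2. The no-guide libraries were highest, guide 2 came next, and guide 1 overlapped with the non-targeting guide. CCND1 fell by 0.44 ± 0.09 (SE) on the log2 scale with the non-targeting guide against no guide (limma, adjusted p = 0.0201), a call lost without the second no-guide library (-0.33, adjusted p = 0.101) and without the second non-targeting library (-0.34, adjusted p = 0.12). With the e3 guides against all controls the change was -0.09 (95% interval -0.41 to 0.23, limma adjusted p = 0.757).

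CCND3 had its lowest levels where CCND1 had its highest. It stood at 7.21 and 8.43 RPKM without a guide, 11.5 and 11.2 RPKM with the non-targeting guide, 9.83 and 9.62 RPKM under guide 1 and 13.1 and 12.3 RPKM under guide 2, with no overlap between any of the 4 groups. CCND3 rose by 0.49 ± 0.11 (SE) on the log2 scale with the non-targeting guide against no guide (limma, adjusted p = 0.0242). Under guide 2 it rose by 0.40 ± 0.09 against the controls (limma, adjusted p = 0.0282). The call between the controls was lost without the first no-guide library (adjusted p = 0.117) and without either non-targeting library (0.11 and 0.0995). That under guide 2 was lost without the first no-guide library (adjusted p = 0.061), either non-targeting library (0.0665 and 0.0722) or either library of guide 2 (0.168 and 0.106). Guide 1 lay between the 2 controls and did not pass (0.04 ± 0.09, limma adjusted p = 0.833). CCND2, the other D cyclin gene, was listed at 0 RPKM in all 8 libraries.

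Of the kinases that D cyclins activate, CDK4 stood at 68.8 and 76.8 RPKM without a guide, 69.8 and 61.9 RPKM with the non-targeting guide, 59.5 and 60.6 RPKM under guide 1 and 59.7 and 57.3 RPKM under guide 2. All e3 libraries lay below all controls, the nearest pair being 60.6 and 61.9 RPKM. The log2 change was -0.22 ± 0.07 (SE; limma, adjusted p = 0.106) against all controls, and -0.15 (adjusted p = 0.241) against the non-targeting guide. CDK4 fell against no guide alone, by 0.29 ± 0.06 (limma, adjusted p = 0.0191), a call lost without the second no-guide library (-0.21, adjusted p = 0.161). CDK6 was the steadiest gene, between 10.0 and 12.4 RPKM over all libraries, and passed in none of the 7 comparisons. Its change with the e3 guides was -0.07 (95% interval -0.28 to 0.13, limma adjusted p = 0.693).

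The E cyclin CCNE1 stood at 19.3 and 14.8 RPKM without a guide, 23.5 and 24.97 RPKM with the non-targeting guide, 22.1 and 23.1 RPKM under guide 1 and 27.0 and 26.8 RPKM under guide 2. The 4 groups did not overlap, with no guide lowest and guide 2 highest. CCNE1 rose by 0.49 ± 0.12 (SE) on the log2 scale with the non-targeting guide against no guide (limma, adjusted p = 0.0336), by 0.39 ± 0.10 with guide 2 against the controls (adjusted p = 0.0404) and by 0.52 ± 0.13 for the e3 guides against no guide (adjusted p = 0.0286). The call between the controls was lost in 7 of the 8 fits that left out 1 library, all but that without the first no-guide library (adjusted p of 0.0515 to 0.157), with a replicate block (0.0501) and without a filter (0.0697). The call under guide 2 was lost without any 1 library other than those of no guide (adjusted p of 0.0581 to 0.176), with a replicate block (0.057) and without a filter (0.0839). The call against no guide was lost without the second no-guide library (adjusted p = 0.205), without either library of guide 2 (0.0664 and 0.0623) and without a filter (0.108). Against the non-targeting guide the e3 guides differed by 0.03 (95% interval -0.21 to 0.26, limma adjusted p = 0.919).

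RB1 was the lowest of the 10 genes, with a mean of 1.26 RPKM, above 4.50% of genes tested. It stood at 1.38 and 1.62 RPKM without a guide, 1.42 and 1.59 RPKM with the non-targeting guide, 1.11 and 0.742 RPKM under guide 1 and 0.937 and 1.30 RPKM under guide 2. These values rest on 16 to 42 reads, and the 95% Poisson interval of the first no-guide library (0.966 to 1.91 RPKM) covers 5 of the other 7 values. The e3 libraries lay below the controls, with a log2 change of -0.31 ± 0.16 (SE; limma, adjusted p = 0.273), which was not called. Intervals of this kind cover counting error only.

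E2F1, which encodes the best known of the transcription factors that RB1 restrains, was the 1 member called between the e3 libraries and the non-targeting libraries. It stood at 23.4 and 21.8 RPKM without a guide, 18.6 and 21.7 RPKM with the non-targeting guide, 24.7 and 27.6 RPKM under guide 1 and 28.0 and 26.5 RPKM under guide 2. Every e3 library lay above every control library, and guides 1 and 2 overlapped. E2F1 rose by 0.39 ± 0.09 (SE) on the log2 scale against the non-targeting guide (limma, adjusted p = 0.0406). Against no guide alone, where E2F1 was higher than with the non-targeting guide, the change did not pass (0.23 ± 0.08, limma adjusted p = 0.0927). Under guide 2 E2F1 rose by 0.34 ± 0.09 against all controls (limma, adjusted p = 0.0388), and guide 1 did not pass (0.28 ± 0.09, adjusted p = 0.0903). Against all controls the e3 guides together gave 0.31 ± 0.08 (limma, adjusted p = 0.0633), from 21.4 ± 2.02 to 26.7 ± 1.5 RPKM (SD, n = 4 each). Leaving out the first or the second non-targeting library left 1 in that group and gave changes of 0.29 and 0.50 against it, for which no call is given. The call against the non-targeting guide was lost without the second library of guide 1 (limma, adjusted p = 0.0798) and without either library of guide 2 (0.0972 and 0.0807). It was also lost with a replicate block (0.0586) and without a filter (0.109). The call under guide 2 was lost without either no-guide library (limma, adjusted p = 0.0602 and 0.0892), the first non-targeting library (0.0882) or either library of guide 2 (0.198 and 0.131), with a replicate block (0.0552) and without a filter (0.0721).

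Read across comparisons, the non-targeting guide differed from no guide in 5 of the 10 genes, with CDKN1A, CCND3 and CCNE1 higher and CDKN1B and CCND1 lower, where 12.4% of all genes tested were called (limma). That count was 3 without the second no-guide library, 3 without the first non-targeting library and 2 without the second, and CDKN1A and CDKN1B were called each time. The e3 guides against no guide gave 4 calls (CDKN1A and CCNE1 higher, CDKN1B and CDK4 lower; 16.7% of all genes), and 2, CDKN1A and CDKN1B, without the second no-guide library. Against the non-targeting guide the e3 guides gave 1 call, E2F1 (6.84% of all genes). Guide 1 against the controls gave 1 call, CDKN1A (8.99% of all genes), and guide 2 gave 5, with CDKN1A, CCND3, CCNE1 and E2F1 higher and CDKN2A lower (14.5% of all genes). Without either library of guide 2, CDKN1A was the sole call there, and 2 calls were left without the first non-targeting library. Comparisons that share a control group are not independent of each other.

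**Figure D3:**
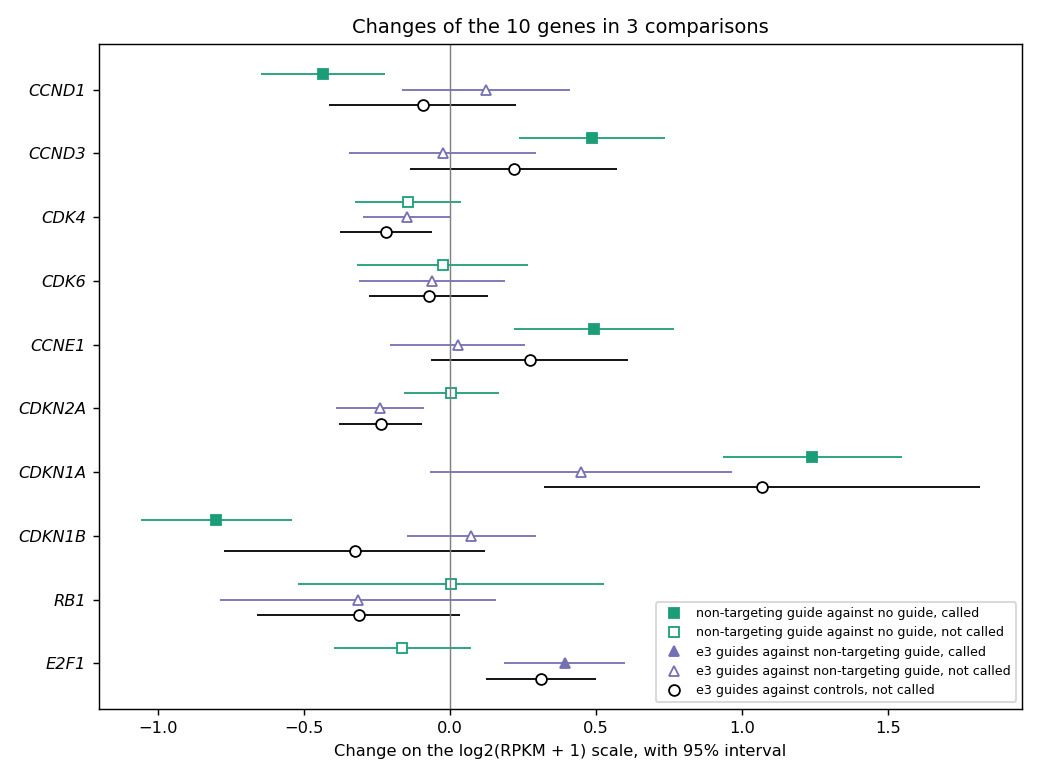
Change on the log2(RPKM + 1) scale (horizontal axis) of each gene (vertical axis) in 3 comparisons, with 95% intervals from limma. Filled symbols passed an adjusted p of 0.05. CDKN1A, CCND3, CCNE1, CDKN1B and CCND1 are filled between the controls, E2F1 is filled for the e3 guides compared with the non-targeting libraries, and none is filled for the e3 guides against all controls.

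Guide 2 and guide 1 were compared directly, and none of the 10 genes was called (limma; 0.0286% of all genes were), with 3 at an unadjusted p under 0.05 beside 10.4% of all genes. CDKN1A had the largest difference, 0.66 on the log2 scale with guide 2 above guide 1 (95% interval 0.35 to 0.96, adjusted p = 0.153). CCND3 and CCND1 differed by 0.35 (95% interval 0.10 to 0.60, adjusted p = 0.327) and 0.34 (95% interval 0.12 to 0.55, adjusted p = 0.29). MYC was lower with guide 2 by 0.24 (limma, adjusted p = 0.193). Without a call in either direction, neither a difference nor its absence was shown for these genes.

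The wider G1 to S machinery was covered by 7 lists with 76 distinct genes, of which 72 were tested. With the e3 guides against all controls 3 rose, MYBL2, TP53I3 and PHLDA3, and 69 did not pass (limma; 2.63% of all genes were called higher). None of the 3 was called with an estimated correlation within groups (adjusted p = 0.0794 for MYBL2, 0.0732 for TP53I3 and 0.0799 for PHLDA3) or with a replicate block (0.0715, 0.058 and 0.0505). MYBL2, a transcription factor gene of the S and G2 phases that E2F factors control, stood at 35.1 and 39.9 RPKM without a guide, 53.6 and 56.6 RPKM with the non-targeting guide, 70.4 and 71.4 RPKM under guide 1 and 67.6 and 65.7 RPKM under guide 2. It rose by 0.59 ± 0.14 (SE; adjusted p = 0.0428), and also against the non-targeting guide alone (0.31 ± 0.06, adjusted p = 0.0238). All e3 libraries were above all controls, and the non-targeting libraries were above those without a guide. None of the 3 calls was made without the first or the second no-guide library, without the second library of guide 1 or without either library of guide 2, and 1 was made without the first library of guide 1. Leaving out the second non-targeting library gave 5.

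Among p53 target genes, a group that includes CDKN1A by textbook knowledge but was listed without it, 2 of 19 tested rose with the e3 guides and 17 did not pass, where 2.63% of all genes were called higher. As given above, both calls were lost with an estimated correlation (limma, adjusted p = 0.0732 and 0.0799), with a replicate block, without either no-guide library and without either library of guide 2. TP53I3, an oxidoreductase gene, went from 12.4 ± 1.69 to 20.9 ± 4.51 RPKM (SD, n = 4 each), a change of 0.69 on the log2 scale (limma, adjusted p = 0.0321). PHLDA3, an inhibitor of AKT signalling, went from 9.20 ± 1.29 to 13.4 ± 0.82 RPKM (0.50, limma adjusted p = 0.0298). Against the non-targeting guide alone TP53I3 changed by 0.54 (limma, adjusted p = 0.104) and PHLDA3 by 0.36 (adjusted p = 0.0635). None of the 19 genes was called there, beside 6.84% of all genes tested. GADD45A, a growth arrest gene, ran from 28.3 RPKM without a guide to 64.6 RPKM under guide 2 (0.61, limma adjusted p = 0.0576), and it rose with the non-targeting guide against no guide (0.56, adjusted p = 0.00437). The list's median change was 0.01, beside -0.02 over all genes tested, and MDM2, which encodes the main negative regulator of p53, had -0.35 (limma, adjusted p = 0.165). At an unadjusted p under 0.05 (limma) there were 7 of the 19, beside 22.2% of all genes. They were TP53I3, PHLDA3, GADD45A and SESN2 (0.36), which were higher, and MDM2, CCNG1 (-0.39) and BAX (-0.22), which were lower. With guide 2 against the controls CCNG1 (-0.55, limma adjusted p = 0.0112) and FDXR (-0.56, adjusted p = 0.00973) were called lower. There GADD45A, TP53I3 and PHLDA3 were called higher, where 14.5% of all genes were called.

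In the remaining lists no gene but MYBL2 passed with the e3 guides against all controls. Of 20 E2F-regulated genes of S phase entry 19 did not pass, among them the replication licensing genes CDT1 (0.21) and MCM7 (-0.15), and the list's median was 0.04. Of 10 tested pocket protein, E2F and DP genes none passed in limma and none had an unadjusted p under 0.05, with TFDP1 (-0.13), E2F7 (0.29) and E2F8 (0.14) at the smallest p. Of 9 other cyclin and kinase genes none passed and 1 had an unadjusted p under 0.05, CDK7, the kinase that activates CDKs (-0.38, limma adjusted p = 0.192), ahead of CCNH (-0.25) and CCNC (-0.14). Of the 3 other CDK inhibitor genes tested, all of the INK4 family, none passed, with CDKN2C at 0.23, CDKN2D at 0.46 and CDKN2B at 0.18, and 2 had an unadjusted p under 0.05. Among 10 genes for ubiquitin ligase parts, SKP2, the subunit that selects p27 for destruction, had -0.45 (limma, adjusted p = 0.0546), RBX1 0.71 (adjusted p = 0.161) and FBXO31 -0.29 (adjusted p = 0.126), and 3 had an unadjusted p under 0.05. SKP2 fell with each guide taken alone against the controls, by 0.34 under guide 1 (limma, adjusted p = 0.0137) and 0.55 under guide 2 (adjusted p = 0.000975). With the e3 guides together SKP2 was not called against the non-targeting guide alone (-0.26, limma adjusted p = 0.137). It was called against no guide alone (-0.64, adjusted p = 0.00307). In the MuvB core list LIN9 (-0.26) and LIN37 (0.17) followed MYBL2.

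**Figure D4:**
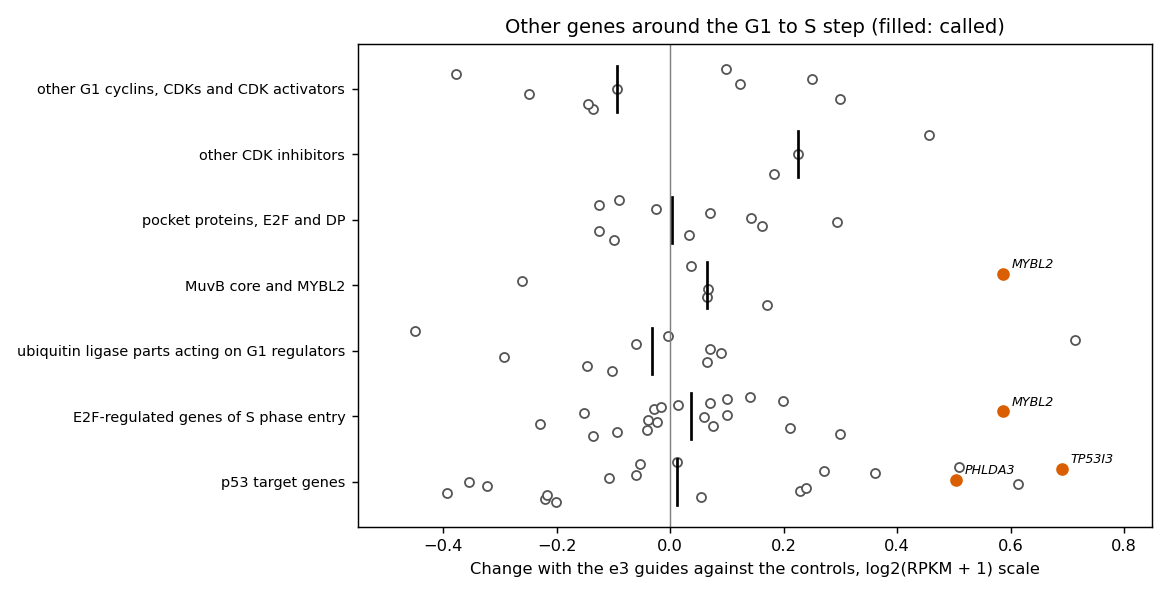
Change with the e3 guides against all controls on the log2(RPKM + 1) scale (horizontal axis) for each tested gene of 7 lists (vertical axis). Points are genes, filled where the adjusted p was under 0.05, and black bars are list medians. MYBL2, which is in 2 lists, TP53I3 and PHLDA3 are filled.

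For the 4 genes whose group means spanned at least 0.5 on the log2 scale, the tested genes with the most similar profile over the 8 libraries were found by Pearson's r, as a description over libraries that share groups and depth. For CDKN1A (span 2.02) they included SRPX (r = 0.988) and CGB1 (0.987), which has near-identical copies that can share its reads. For CDKN1B (span 0.80) they were the aldehyde dehydrogenase genes ALDH5A1 (0.996) and ALDH3A2 (0.992) and GULP1 (0.99). CCNE1 (span 0.64) was closest to ELK3 (0.988), TSEN15 (0.979) and WNT10A (0.977), and CCND3 (span 0.64) to FXYD5 (0.967), PRKAA2 (0.963) and FAM25C (0.959).

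The genes lie on chromosomes 6 (CCND3 and CDKN1A), 7 (CDK6), 9 (CDKN2A), 11 (CCND1), 12 (CDK4 and CDKN1B), 13 (RB1), 19 (CCNE1) and 20 (E2F1). Some levels depend on how exons were counted, a step not described in the sources used here. The gene length behind the RPKM of CCND1, recovered from its steps, was 1.05 kb, where GENCODE 29 has 4830 exon bases for the gene, and that of CDK4 was 1.55 kb, where it has 3168. The level of these genes against other genes is therefore uncertain, while comparisons between libraries do not use the length. On the opposite strand, exons of TSPAN31 cover 43.2% of the exon bases of CDK4, those of LTO1 10.3% of CCND1 and those of CDKN2B-AS1 7.88% of CDKN2A, with levels of 4.13 to 8.46, 3.01 to 4.26 and 0.106 to 1.02 RPKM. Without a stated strand setting such reads cannot be told apart.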

How the data were processed

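The authors deposited RPKM values (reads scaled to gene length and depth, per the file headers), 1 column for each library. The submitters' processing notes name hg19 and Cufflinks, with no role or version. Which aligner, counting rule, strand setting and annotation were used is not given in the sources used here. Groups and replicate numbers came from the sample titles, and columns were matched by name.

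RPKM values of 13978 of 13979 tested genes were whole multiples of 1 read to within 0.03 reads, from which depths were recovered (median 122 reads per gene). No count test was run. Tests used limma 3.58.1 in R 4.3.3 on log2(RPKM + 1), a scale that understates changes of low genes, with a variance trend and Benjamini-Hochberg adjustment over all tested genes, two-sided. Each e3 arm as a whole was fitted in a model of 2 groups, and other comparisons in a model of 4 groups. Errors are SEs on changes and SDs on levels. The script was tested on simulated data.

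The text names the 10 members, MYC, the called genes of each pathway list or else the 3 with the smallest p, and, for members spanning 0.5 or more, the 3 genes with the highest r, of which 1 is not reported here. Other genes were chosen after their values were seen. The members and lists were chosen with earlier results of these data known. RefSeq windows (GRCh38.p14) and GENCODE 29 exons are of another build than hg19. Alternatives were other pseudocounts, filters and scalings, a replicate block, an estimated correlation, group means and leaving out each library.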

Additional observations from a re-analysis of the deposited data

How the results depend on the processing

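The counts of called genes among the 10 depended on the filter on low values, which sets how many genes are adjusted for. With a mean of at least 5 RPKM, 2 were called with the e3 guides against all controls (CDKN2A and E2F1) and 2 against the non-targeting guide, and 5 pathway genes were called. Without a filter the count was 3 with guide 2, 0 against the non-targeting guide and 0 of the pathway genes. Leaving out each library in turn gave 0 to 1 calls for the e3 guides against all controls, 0 to 1 for guide 1, 1 to 4 for guide 2, 2 to 4 between the controls, 0 to 1 for the e3 guides compared with the non-targeting guide, 2 to 4 against no guide, 0 for guide 2 against guide 1, and 0 to 5 pathway genes. With a correlation between libraries of a group estimated, or with group means as samples, 0 pathway genes and 0 of the 10 were called between e3 guides and controls. Of all 13979 genes tested, 256 were called with the estimated correlation and 1 with group means. The limma adjusted p of MYC with group means was 0.407, in a fit that could call hardly any gene. A replicate block gave 3 calls with guide 2, 0 against the non-targeting guide and 0 pathway genes, and counts within 1.5 times elsewhere. Deviations of same-numbered libraries correlated at -0.02 to 0.01 over the tested genes. Whether same-numbered libraries were prepared together cannot be read from these values. A pseudocount of 0.1 and median-ratio scaling left all counts as they were. Quantile normalization changed 1 count, from 4 to 5 against no guide, and turned CDKN2A between the controls from 0.00 to -0.11 and CDK4 between the guides from -0.037 to 0.0013. Differences near 0 changed sign when 1 library was left out. For the e3 guides against all controls CCND1 ranged from -0.20 to 0.016. CCND3 under guide 1 ranged from -0.0081 to 0.091, and CDK6 under guide 2 from -0.16 to 0.096. Between the guides the ranges were -0.052 to 0.21 for CDK6, -0.031 to 0.057 for CDKN1B, -0.0019 to 0.28 for RB1 and -0.021 to 0.14 for E2F1. Between the controls they were -0.12 to 0.068 for CDK6, -0.081 to 0.090 for CDKN2A and -0.065 to 0.074 for RB1. Compared with the non-targeting guide they were -0.0990 to 0.039 for CCND3, -0.016 to 0.077 for CCNE1 and -0.015 to 0.16 for CDKN1B, and compared with no guide -0.18 to 0.00707 for CDK6. None of these differences was called, and the cause was not tested. RB1 had the fewest reads of the 10 genes.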

Other observations

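The controls were also compared with each other for the pathway genes. With the non-targeting guide against no guide, 5 of the 72 pathway genes rose, 5 fell and 62 did not pass (limma). That share of calls was close to the 12.4% over all genes tested, so the count does not set these genes apart. CCNE2, the second E cyclin gene, fell by 0.89 on the log2 scale (adjusted p = 0.0108), from 10.8 and 9.02 RPKM without a guide to 5.35 and 4.42 RPKM with the non-targeting guide, whereas CCNE1 rose there. With the e3 guides CCNE2 stood at 6.91 and 9.09 RPKM (guide 1) and at 10.4 and 9.28 RPKM (guide 2), above both non-targeting libraries, and it rose against them by 0.74 (limma, adjusted p = 0.0337). These comparisons share the non-targeting libraries. RBL2, which encodes a pocket protein related to RB1, fell by 0.51 between the controls (limma, adjusted p = 0.0215), SKP2 by 0.38 (adjusted p = 0.012) and the replication licensing gene MCM2 by 0.37 (adjusted p = 0.0203). E2F4, a mainly repressive E2F factor gene, rose by 0.35 (limma, adjusted p = 0.0152), MYBL2 by 0.54 (adjusted p = 0.00277), CKS1B, which encodes a partner of SKP2, by 0.31 (adjusted p = 0.0173) and RRM2, a ribonucleotide reductase subunit gene, by 0.31 (adjusted p = 0.0424).

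With guide 2 against the controls 5 of the 72 pathway genes rose, 7 fell and 60 did not pass (limma), beside 14.5% of all genes called. Among them E2F7, a repressive E2F factor gene, rose by 0.52 (limma, adjusted p = 0.0197), and CDK7 and CCNA2, the cyclin gene of S phase, fell by 0.64 (adjusted p = 0.00837) and 0.30 (adjusted p = 0.046). With guide 1 none of these 3 passed, with changes of 0.07, -0.11 and 0.03, and CDKN2D rose by 0.69 (limma, adjusted p = 0.0326). There 5 of the 72 rose, 1 fell and 66 did not pass, beside 8.99% of all genes called. The direct comparison of guide 2 with guide 1 called none of the 72 pathway genes. Calls of single pathway genes in comparisons other than that of the e3 guides with all controls were not recomputed under the alternatives.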
